A study of Homo sapiens with 6 samples.

Results

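The transcripts described here encode the centromere, kinetochore and spindle checkpoint machinery. For this, 43 genes were chosen by name: most CENP proteins, the CENP-A deposition factors and the KMN network. They further comprised the SKA and RZZ complexes with their corona partners, and the checkpoint kinases and effectors. All 43 were found by Ensembl identifier among the 79302 genes of the count table, and 43 of 43 passed the filter on low counts that left 16755 genes for testing. The choice used no measured value, although earlier results of these data were known when it was made. The study compared HCT116, an epithelial human colorectal cancer cell line, carrying an shRNA against GDPD5 (shGDPD5, 3 libraries) with the same line carrying a control shRNA (shCtrl, 3 libraries), to ask how loss of this glycerophosphodiester phosphodiesterase alters transcription. The sample labels name no more than the line and the shRNA, whereas the publication describes a radioresistant derivative of HCT116 as the common background of shGDPD5 and shCtrl cells. Cells of both groups were irradiated with 4 Gy and collected 6 h later, as stated there. Neither the identity of the GDPD5 shRNA in these libraries nor the origin of replicates in separate cultures is stated, so the p-values below measure the spread between these libraries, which may be technical.

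Kinetochores are the protein assemblies through which spindle microtubules hold a chromosome. They are laid down on centromeric nucleosomes that contain CENP-A, a histone H3 variant placed by the chaperone HJURP and the Mis18 proteins. Above these nucleosomes sits the constitutive centromere associated network, whose CENP subunits stay bound through the cell cycle. In mitosis this platform recruits the outer kinetochore, in which the KNL1, MIS12 and NDC80 assemblies (the KMN network) capture microtubules, the SKA complex steadies that grip, and the corona with the RZZ complex (ROD, ZW10 and Zwilch) brings in motors. Kinetochores without microtubules activate the spindle checkpoint, in which the kinases TTK and BUB1 recruit MAD and BUB proteins that hold back anaphase. Many of these genes are transcribed mainly in late S, G2 and M phase, and DREAM and MYB-MuvB complexes act on a promoter element called the cell cycle genes homology region (CHR).

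Total counts were 16715447 to 18510670 per library. GDPD5 (chr11:75434640-75525903, minus strand, GENCODE release 29 on GRCh38) had 5.44, 5.55 and 5.19 CPM (the count relative to library size, scaled by TMM factors) in shGDPD5 libraries, against 8.33, 11.6 and 9.75 CPM in shCtrl libraries. No shGDPD5 library reached the lowest shCtrl library, and the log2 fold change was -0.88 ± 0.14 (SE; edgeR adjusted p = 0.0001165). Epithelial markers EPCAM, KRT8, KRT18, KRT19 and CDH1 were present, with a summed level of 2518 to 2626 CPM in shGDPD5 and 3162 to 3601 CPM in shCtrl libraries, whereas CDX1 was at 0 in every library and VIL1 and LGALS4 were near 0. Of 12 leukocyte, fibroblast, endothelial and hepatocyte markers, 4 were at 0 in every library and 1, COL1A1, passed the filter. In shCtrl, replicate 1 stood apart from the other two, with counts that differed from theirs by a chi-square of 6.20 and 7.21 per degree of freedom, against 1.67 between replicates 2 and 3. In shGDPD5, replicate 2 stood apart to a lesser degree, at 3.36 and 2.98 from replicates 1 and 3, which differed from each other by 1.70.

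Transcripts of the kinetochore were higher in shGDPD5 libraries at nearly every level of the structure. Of the 43 genes, 39 were higher and 1, MIS12, was lower at an adjusted p under 0.05 in edgeR's quasi-likelihood test, and 3, CENPB, SPDL1 and MAD1L1, did not pass. The higher genes were 90.7% of the set, where 29.7% of all tested genes were called higher and 30.1% lower. The median log2 fold change over all 43 genes was 0.84, with a range of -0.44 to 1.79, beside a median of 0.01 over all tested genes. An unadjusted p under 0.05 with a log2 fold change of at least 1 was reached by 18 members, and by 5.38% of all tested genes, while no member reached -1 or less, as 6.6% of all tested genes did. In 39 members every shGDPD5 library lay above every shCtrl library, a pattern found in 32.6% of all tested genes, and in 1 member every shGDPD5 library lay below, found in 32.4%. Summed over the 43 genes, the level was 2459 to 2515 CPM in shGDPD5 libraries and 1358 to 1446 CPM in shCtrl libraries. Without shCtrl replicate 1, 39 members were higher and 2 lower, CENPB having joined MIS12 (log2 fold change -0.13, edgeR adjusted p = 0.0221), and the median was 0.88. Without shGDPD5 replicate 2, 38 members were higher and 1 lower, NSL1 no longer passing (edgeR adjusted p = 0.0998), and the median was 0.83.

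**Figure D1:**
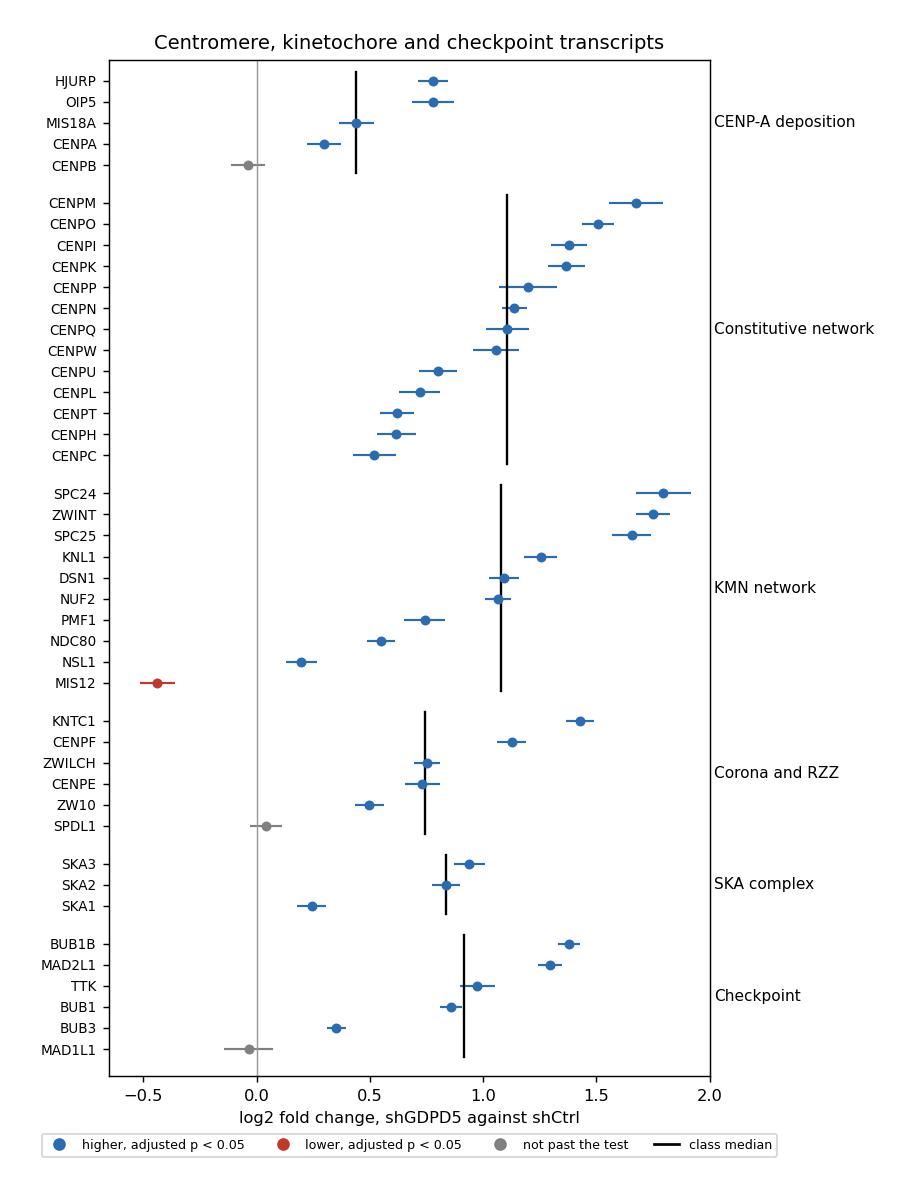
Log2 fold change of each gene, shGDPD5 against shCtrl (x axis), with genes grouped by their place in the kinetochore (y axis). Each point is an edgeR estimate with a bar of 1 SE. Blue marks genes called higher, red the gene called lower and grey those that did not pass at an adjusted p of 0.05, and vertical black lines give the median of each class. MIS12 is the 1 gene called lower, at -0.44, and SPC24 lies farthest to the right, at 1.79.

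These cells were measured in bulk, so a larger share of cells in a phase of the cycle and more transcript per cell cannot be told apart. Marker genes of both cycling phases moved with the kinetochore genes. All 22 of 22 G1/S markers (MCM, PCNA and cyclin E genes among them) were higher, with a median log2 fold change of 1.43 and a summed level of 2497 to 2538 CPM in shGDPD5 and 978.5 to 1011 CPM in shCtrl libraries. Their changes ranged from 0.17 to 2.31, and the cyclin E genes were unlike, CCNE1 at 0.27 and CCNE2 at 1.76. All 22 of 22 G2/M markers were higher as well, with a median of 0.86, a range of 0.22 to 1.89 and a summed level of 3478 to 3504 CPM in shGDPD5 and 1842 to 1971 CPM in shCtrl libraries. None of these markers was at 0 in any library. Of 14 housekeeping genes, 6 were higher, 1 was lower and 7 did not pass, with a median of 0.11. Of all tested genes, 29.7% were higher and 30.1% lower. The housekeeping genes were not uniformly stable, as they ranged from -0.72 (B2M) to 1.05 (PPIA). The part of cycle phase in the results below was not tested.

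To show the sequence context of members at both ends of the range, promoters were read from RefSeq on GRCh38.p14, where 35 of the 43 genes had an entry. Windows ran from 250 bases before to 50 bases after the start site and were searched on both strands for the CHR (written TTTGAA, with the variant TTCGAA), for E2F-type sites (written TTTGGCG, with the further forms TTTCCCG, then also TTTCGCG, and lastly also TTTGCCG) and for CCAAT. The last 150 bases before the start site are given 5′ to 3′ on the gene's strand, with matches in capitals, whichever strand they were found on. BUB1B (chr15:40160919-40161068, plus strand) and ZWINT (chr10:56361260-56361409, minus strand, the first of its 2 windows) are shown as strongly higher genes with a CHR close to the start site, SPC24 (chr19:11155783-11155932, minus strand) as the gene with the largest change, which has CCAAT but no CHR match, CENPA (chr2:26785906-26786055, plus strand) as a gene with a CHR and a small change, MIS12 (chr17:5486224-5486373, plus strand, the first of its 2 windows) as the gene called lower, and CENPB (chr20:3786741-3786890, minus strand) as a gene that did not pass and has no match to any of the 3 motifs.
BUB1B: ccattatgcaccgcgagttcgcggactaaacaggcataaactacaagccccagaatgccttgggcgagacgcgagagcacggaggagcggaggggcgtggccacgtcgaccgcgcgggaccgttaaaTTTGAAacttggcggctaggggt
ZWINT: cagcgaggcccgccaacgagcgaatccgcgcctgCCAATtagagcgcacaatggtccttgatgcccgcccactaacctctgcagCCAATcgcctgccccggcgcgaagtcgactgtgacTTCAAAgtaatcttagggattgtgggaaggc
SPC24: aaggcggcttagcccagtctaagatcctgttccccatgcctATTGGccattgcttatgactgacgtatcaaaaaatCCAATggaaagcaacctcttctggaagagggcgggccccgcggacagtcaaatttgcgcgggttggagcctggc
CENPA: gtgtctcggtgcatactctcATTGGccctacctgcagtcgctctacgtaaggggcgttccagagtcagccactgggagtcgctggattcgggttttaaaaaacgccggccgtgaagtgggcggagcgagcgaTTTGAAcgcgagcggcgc
MIS12: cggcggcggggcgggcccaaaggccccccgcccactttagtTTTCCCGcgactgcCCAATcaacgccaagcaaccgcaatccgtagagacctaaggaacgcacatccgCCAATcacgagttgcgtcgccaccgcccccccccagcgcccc
CENPB: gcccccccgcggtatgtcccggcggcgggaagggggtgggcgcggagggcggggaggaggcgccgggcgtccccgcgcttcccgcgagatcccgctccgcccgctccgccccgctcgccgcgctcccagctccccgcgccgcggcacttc

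The CHR match began at -23 in BUB1B, -31 in ZWINT and -18 in CENPA, counting the last base before the start site as -1, and HJURP had one at -111. Of the 35 members searched, 19 (54.3%) held a CHR match, against 19.5% of 27303 genes with a promoter entry. These 27303 genes were not filtered by their counts here, unlike the members, and the shares among the tested genes were not computed. CCAAT was found in 22 members (62.9%), against 39.7% of all genes, and an E2F-type site in 7 members (20%), against 10.4%. The window of 13 members (37.1%) held neither a CHR nor an E2F-type match, as did that of 72% of all genes. Among these 13, the CENPI window (chrX:101100808-101101107) lies inside the annotated gene, which starts at 101098218. CENPP was searched in 3 windows, the last from chr9:92600007, far inside a gene that starts at 92325484. A missing match can thus depend on the window used. Within the members, the median log2 fold change was 0.94 with a CHR match and 0.78 without, a difference that was not tested. For E2F-type sites the medians were 0.55 with a match and 1.06 without, and for CCAAT 0.85 with and 0.73 without. BUB3, CENPH, CENPL, CENPM, KNL1, KNTC1, MIS18A and TTK had no promoter entry and enter none of these medians. Their log2 fold changes ran from 0.35 (BUB3) to 1.68 (CENPM), so the medians could differ with them included. A match is a description of the letters in the window and not of binding.

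At the centromere itself, the chaperone and licensing genes were higher while the DNA-binding protein was not. Of the 5 genes of this class, 4 were higher and 1 did not pass, with a median log2 fold change of 0.44, the smallest of the 6 classes. HJURP, which escorts CENP-A to centromeres (chr2:233833416-233854566, minus strand), had 50.8, 54.7 and 52.3 CPM in shGDPD5 libraries, against 27.95, 32.1 and 31.9 CPM in shCtrl libraries. All shGDPD5 libraries lay above all shCtrl libraries, and HJURP rose by 0.78 ± 0.067 on the log2 scale (SE; edgeR adjusted p = 7.366e-07). OIP5, the Mis18 beta subunit (chr15:41309268-41332621, minus strand), had 14.8, 13.8 and 14.9 CPM in shGDPD5 libraries, against 8.15, 8.92 and 8.30 CPM in shCtrl libraries. It rose by the same 0.78 ± 0.093 without overlap of the groups (edgeR adjusted p = 1.31e-05), and it shares exon sequence with its antisense neighbour OIP5-AS1, so that reads of the pair could be mixed if strand was not used. MIS18A, its Mis18 alpha partner, rose by 0.44 ± 0.077 (edgeR adjusted p = 0.0003193).

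CENPA, the histone variant that marks the centromere (chr2:26764289-26801067, plus strand, a span that contains the promoter printed above), changed less than its chaperone. It had 21.4, 19.8 and 22.3 CPM in shGDPD5 libraries, against 17.4, 17.04 and 17.2 CPM in shCtrl libraries, and rose by 0.30 ± 0.076 (edgeR adjusted p = 0.004582). Its exons overlap those of SLC35F6 on the same strand. The ratio of HJURP to CENPA counts was 2.34 to 2.76 in shGDPD5 and 1.61 to 1.88 in shCtrl libraries. CENPB, which binds a motif in alpha satellite DNA (chr20:3783851-3786690, minus strand), had 56.9, 54.9 and 55.3 CPM in shGDPD5 libraries, against 49.7, 62.1 and 59.3 CPM in shCtrl libraries. The shGDPD5 values lie inside the shCtrl range, whose low end is replicate 1, and the log2 fold change was -0.036 ± 0.075 (edgeR adjusted p = 0.6993).

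Every gene of the constitutive network was higher. All 13 of 13 passed, with log2 fold changes of 0.52 to 1.68, a median of 1.11 and 8 genes at 1 or more, and the summed level was 343 to 355 CPM in shGDPD5 and 169 to 174 CPM in shCtrl libraries. CENPM, a subunit of the CENP-H/I/K/M assembly that resembles a small GTPase (chr22:41938721-41947164, minus strand), had 10.8, 9.87 and 10.4 CPM in shGDPD5 libraries, against 3.20, 3.05 and 3.46 CPM in shCtrl libraries. The groups were far apart although the gene was weakly expressed, with 54 counts in its lowest library, and CENPM rose by 1.68 ± 0.12 (SE; edgeR adjusted p = 1.362e-07). CENPC, which joins CENP-A nucleosomes to the outer kinetochore (chr4:67468748-67545606, minus strand), had 25.7, 24.0 and 26.7 CPM in shGDPD5 libraries, against 20.4, 17.4 and 15.5 CPM in shCtrl libraries. It showed the smallest change of the network, 0.52 ± 0.095 (edgeR adjusted p = 0.0004613), with shCtrl replicate 1 nearest to the shGDPD5 libraries and an annotated pseudogene, CENPCP1.

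Within the CENP-H/I/K/M assembly, CENPI rose by 1.38 ± 0.080 (edgeR adjusted p = 2.19e-08), CENPK by 1.37 ± 0.083 (3.166e-08) and CENPH by 0.62 ± 0.086 (4.901e-05). Among subunits of the CENP-O/P/Q/U assembly, which serves as a docking site for the kinase PLK1, CENPO rose by 1.51 ± 0.071 (edgeR adjusted p = 3.596e-09), CENPP by 1.197 ± 0.13 (5.028e-06), CENPQ by 1.11 ± 0.094 (6.73e-07) and CENPU by 0.80 ± 0.083 (3.908e-06). CENPN, which recognises the CENP-A nucleosome, rose by 1.14 ± 0.054 (edgeR adjusted p = 3.751e-09), and its partner CENPL rose by 0.72 ± 0.090 (1.968e-05). The histone fold pair that recruits NDC80 complexes rose as well, CENPW by 1.06 ± 0.10 (edgeR adjusted p = 2.027e-06) and CENPT by 0.62 ± 0.075 (1.478e-05). In each of these assemblies, then, the changes were unequal. CENPO, CENPP, CENPN, CENPL, CENPT and CENPU overlap exons of genes on the opposite strand, and CENPI and CENPU have annotated pseudogenes.

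**Figure D2:**
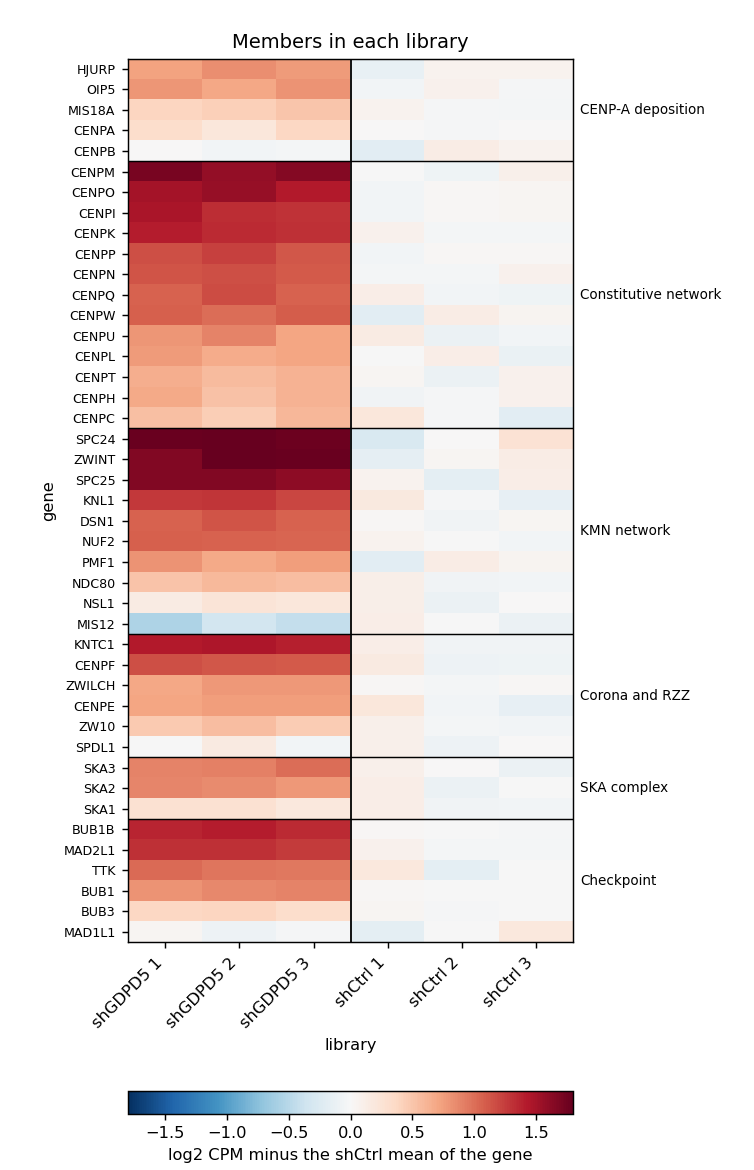
Level of each gene (y axis) in each of the 6 libraries (x axis), as log2 CPM minus the mean of the shCtrl libraries for that gene, on a colour scale from blue (lower) to red (higher). The 3 shGDPD5 columns are red in all rows except CENPB, MIS12, SPDL1 and MAD1L1, and differ little from each other.

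In the KMN network, which holds the microtubule, the change ranged from the largest rise among the 43 genes to their sole fall. Of the 10 genes, 9 were higher and 1 was lower, with a median of 1.08. SPC24, which anchors the NDC80 complex to the inner kinetochore (chr19:11131520-11155808, minus strand), had 17.7, 18.3 and 17.5 CPM in shGDPD5 libraries, against 4.19, 5.08 and 6.11 CPM in shCtrl libraries. Its groups were well separated, with a wider spread in shCtrl, and SPC24 rose by 1.79 ± 0.12 (SE; edgeR adjusted p = 7.705e-08), a 3.47-fold difference. Its partner SPC25 rose by 1.65 ± 0.086 (edgeR adjusted p = 7.764e-09), whereas the microtubule-binding subunits changed less, NUF2 by 1.06 ± 0.058 (1.225e-08) and NDC80 by 0.55 ± 0.061 (6.832e-06). KNL1, the scaffold on which BUB proteins assemble, rose by 1.25 ± 0.073 (edgeR adjusted p = 2.17e-08). ZWINT, the KNL1 partner that links to the RZZ complex, rose by 1.75 ± 0.077 (1.766e-09).

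MIS12 ran the other way. This gene, which names the complex that joins CENP-C to KNL1 and NDC80 (chr17:5486285-5490814, plus strand), had 22.5, 26.3 and 24.6 CPM in shGDPD5 libraries, against 35.8, 32.9 and 30.7 CPM in shCtrl libraries. Every shGDPD5 library was below every shCtrl library, and MIS12 fell by 0.44 ± 0.078 on the log2 scale (edgeR adjusted p = 0.0003847). Its exons overlap those of DERL2 on the opposite strand. The other subunits of the complex did not fall with it: DSN1 rose by 1.09 ± 0.065 (edgeR adjusted p = 2.72e-08) and PMF1 by 0.74 ± 0.090 (1.533e-05), PMF1 sharing exons with the PMF1-BGLAP readthrough gene. NSL1 had 30.5, 32.3 and 31.4 CPM in shGDPD5 libraries, against 29.4, 25.4 and 27.4 CPM in shCtrl libraries, a difference of 0.20 ± 0.069 (edgeR adjusted p = 0.0262) that did not pass in DESeq2 (adjusted p = 0.08204) or without shCtrl replicate 2 (edgeR adjusted p = 0.1353).

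The corona and the RZZ complex, which carry motors and checkpoint proteins on unattached kinetochores, were higher in 5 of 6 genes, with a median of 0.74. KNTC1, which encodes ROD (chr12:122527246-122626396, plus strand), had 78.02, 79.7 and 76.4 CPM in shGDPD5 libraries, against 31.5, 27.8 and 27.7 CPM in shCtrl libraries. Neither group spread by more than a few CPM, and KNTC1 rose by 1.43 ± 0.063 (SE; edgeR adjusted p = 1.766e-09). The other RZZ subunits rose less, ZWILCH by 0.75 ± 0.058 (edgeR adjusted p = 2.831e-07) and ZW10 by 0.50 ± 0.066 (3.2e-05). CENPF, a very large coiled-coil protein of the corona, rose by 1.13 ± 0.063 (edgeR adjusted p = 1.515e-08), and the kinesin CENPE rose by 0.73 ± 0.076 (3.875e-06). SPDL1, or Spindly, the adaptor that couples RZZ to dynein (chr5:169583634-169604778, plus strand), had 37.2, 42.1 and 36.3 CPM in shGDPD5 libraries, against 39.8, 35.1 and 37.5 CPM in shCtrl libraries. Its groups overlapped, and the log2 fold change was 0.042 ± 0.073 (edgeR adjusted p = 0.6419).

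All 3 SKA genes were higher, with a median of 0.84 and none at 1 or more. SKA3, the subunit whose phosphorylation by CDK1 binds the complex to NDC80 (chr13:21153595-21176602, minus strand), had 46.3, 46.6 and 49.7 CPM in shGDPD5 libraries, against 26.5, 24.9 and 23.0 CPM in shCtrl libraries. It rose by 0.94 ± 0.067 (edgeR adjusted p = 1.369e-07) without overlap of the groups. SKA1, the microtubule-binding subunit (chr18:50374995-50394173, plus strand), had 42.0, 42.1 and 39.8 CPM in shGDPD5 libraries, against 37.7, 33.2 and 33.7 CPM in shCtrl libraries. Here shCtrl replicate 1 came close to the lowest shGDPD5 library, and the change was 0.24 ± 0.065 (edgeR adjusted p = 0.006378). SKA2, the remaining subunit, rose by 0.84 ± 0.063 (2.1e-07) and has an annotated pseudogene.

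In the spindle checkpoint 5 of 6 genes were higher, with a median of 0.92. BUB1B, which encodes the checkpoint effector BUBR1 (chr15:40161023-40221136, plus strand), had 132.7, 135.8 and 129.7 CPM in shGDPD5 libraries, against 51.9, 50.9 and 50.4 CPM in shCtrl libraries. The libraries of each group lay close together, and BUB1B rose by 1.38 ± 0.049 (SE; edgeR adjusted p = 3.017e-10), with some exons shared with the BUB1B-PAK6 readthrough gene. MAD2L1, which as MAD2 traps the anaphase activator CDC20, rose by 1.30 ± 0.052 (edgeR adjusted p = 8.529e-10). The kinase genes followed, TTK with 0.97 ± 0.077 (edgeR adjusted p = 3.549e-07) and BUB1 with 0.86 ± 0.048 (1.516e-08). BUB3, the WD40 protein that carries BUB1 and BUBR1 to KNL1, rose by 0.35 ± 0.044 (edgeR adjusted p = 1.809e-05). MAD1L1, whose product MAD1 holds MAD2 at unattached kinetochores (chr7:1815793-2233243, minus strand), had 12.9, 11.8 and 12.5 CPM in shGDPD5 libraries, against 11.1, 12.5 and 14.4 CPM in shCtrl libraries. The shGDPD5 values fall within the shCtrl range, and the log2 fold change was -0.035 ± 0.11 (edgeR adjusted p = 0.7933). BUB1 and BUB3 each have an annotated pseudogene.

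**Figure D3:**
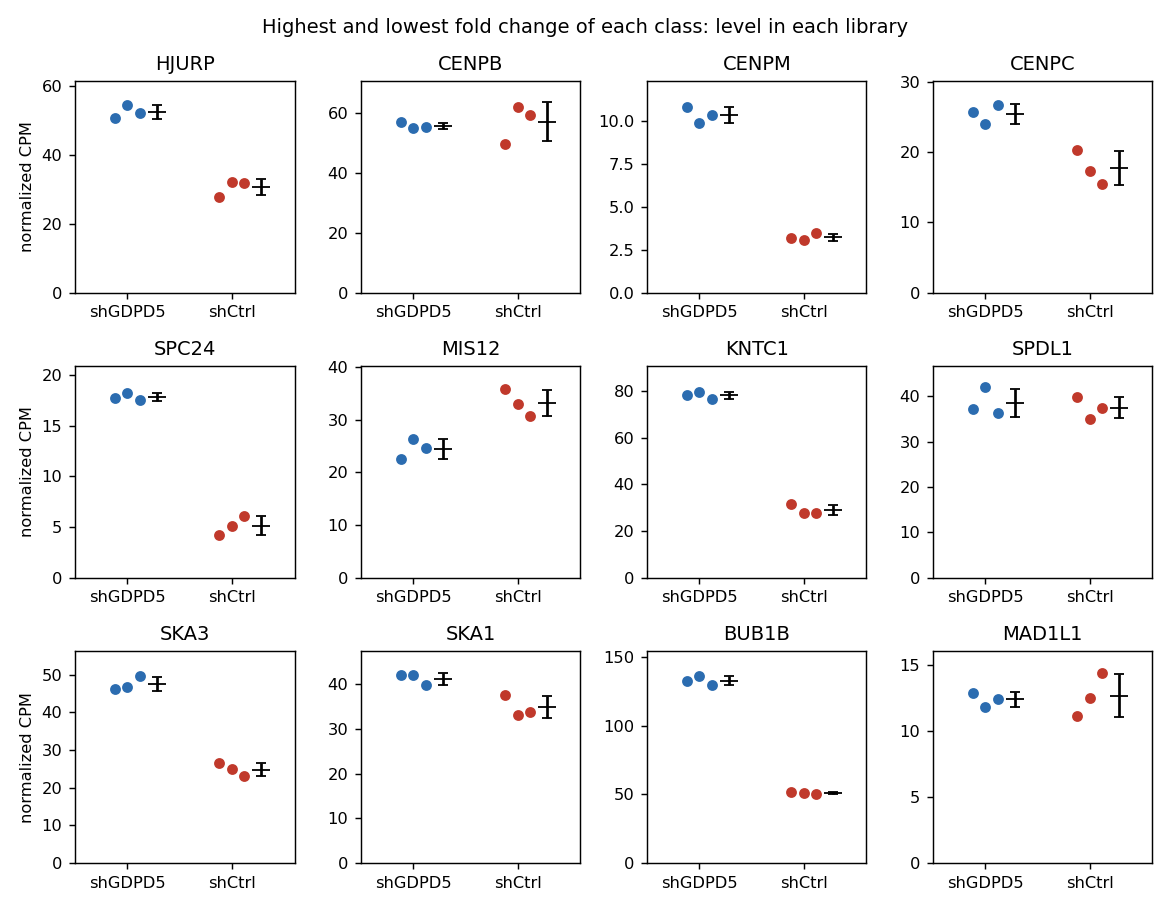
Level in each library (y axis, CPM scaled by TMM factors, starting at 0) for the gene with the largest and the gene with the smallest log2 fold change in each of the 6 classes (HJURP and OIP5 tied, and HJURP is drawn), with shGDPD5 libraries in blue and shCtrl libraries in red (x axis). Each point is 1 library, beside a black bar for the mean and SD of the group. SPC24 lies at 17.5 to 18.3 CPM in shGDPD5 and 4.19 to 6.11 CPM in shCtrl, whereas the groups overlap for CENPB, SPDL1 and MAD1L1.

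The inner platform was then set against the outer structure. The 13 constitutive network genes had a median log2 fold change of 1.11, and the 25 genes of the KMN network, corona and RZZ, SKA complex and checkpoint together had a median of 0.86, with 22 higher, 1 lower and 2 that did not pass. The difference of the medians was 0.25, and 8 of 13 constitutive genes but 10 of 25 outer genes had a log2 fold change of at least 1. In the single libraries, the median of the constitutive genes minus that of the outer genes (each gene centred on its shCtrl mean) was 0.18, 0.29 and 0.20 in shGDPD5 libraries, against -0.10, 0.02 and 0.04 in shCtrl libraries. The difference thus had the same sign in the 3 shGDPD5 libraries, which are all measured from one shared shCtrl baseline. It was small beside the range within each class, 0.52 to 1.68 for the constitutive and -0.44 to 1.79 for the outer genes. The outer median also hides unlike classes, since the KMN network, at 1.08, lay close to the constitutive network, and the corona and RZZ class, at 0.74, lay below it. The constitutive median leaves out ITGB3BP, CENPS and CENPX, further subunits of the network that were counted with the other genes below. Their log2 fold changes were 1.31, 0.90 and 0.65. No test was made of the class medians, because genes are not replicates of a condition.

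Because the members of one complex changed by unequal amounts, the balance between their transcripts differed between the groups. On a scale of CPM per kb of annotated exon, the highest subunit of the NDC80 complex exceeded the lowest by 2.68 to 2.79-fold in shGDPD5 and 5.29 to 8.55-fold in shCtrl libraries. For SPC24, the least abundant subunit, the ratio of counts to NDC80 was 0.282 to 0.294 in shGDPD5 and 0.0922 to 0.149 in shCtrl libraries. The RZZ subunits spanned 1.66 to 1.73-fold in shGDPD5 and 3.16 to 3.27-fold in shCtrl libraries, and the CENP-H/I/K/M subunits 1.48 to 1.62-fold in shGDPD5 and 2.87 to 3.11-fold in shCtrl libraries. BUB1B, BUB3 and MAD2L1 spanned 1.25 to 1.27-fold in shGDPD5 and 2.33 to 2.43-fold in shCtrl libraries. The ratio of BUB1B to BUB3 counts was 0.540 to 0.548 in shGDPD5 and 0.266 to 0.271 in shCtrl libraries. CDC20, which MAD2 traps, was not counted with these 3 effectors. Its mean level per kb, 67.9 in shGDPD5 and 34.8 in shCtrl libraries, was above theirs, and it rose by 0.96. The span with CDC20 included would thus differ. In these 4 assemblies, the subunit with the highest level per kb in shCtrl libraries (NDC80, ZW10, CENPH and BUB3) was the one that rose least. A narrower span largely entails such an order, so it is not a separate result.

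That narrowing was not general. Of 12 assemblies examined, the span was narrower in every shGDPD5 library than in any shCtrl library for 6, among them also the CENP-O/P/Q/U subunits and the Mis18 pair, it was wider for 4 and it overlapped for 2. It was wider in shGDPD5 libraries for CENPL with CENPN (6.87 to 7.46-fold, against 4.76 to 6.08-fold in shCtrl libraries), for CENPT with CENPW (4.41 to 4.56-fold, against 2.82 to 3.92-fold in shCtrl libraries), for CENPA with HJURP (1.22 to 1.43-fold, against 1.02 to 1.196-fold in shCtrl libraries) and for KNL1 with ZWINT (2.86 to 3.26-fold, against 1.72 to 2.66-fold in shCtrl libraries). In these wider pairs CENPN, CENPW and ZWINT, each the higher of its pair in shCtrl libraries, rose more than their partners, whereas CENPA rose less than HJURP. CENPS and CENPX were not counted with CENPT and CENPW. CENPX had a higher mean level per kb than CENPW, 24.4 in shGDPD5 and 15.5 in shCtrl libraries, so a span that included it could differ. For the SKA complex the groups overlapped, at 2.19 to 2.25-fold in shGDPD5 and 1.97 to 2.28-fold in shCtrl libraries. The share of separated spans among sets of other genes was not computed. Of all tested genes, 32.6% had every shGDPD5 library above every shCtrl library and 32.4% had every one below. Separated spans may thus be common, and they were not shown to be particular to these complexes. The highest subunit per kb switched for CENPA with HJURP. CENPA led in every shCtrl library (8.595 to 8.751, against 7.315 to 8.404) and HJURP in every shGDPD5 library (13.29 to 14.3, against 9.985 to 11.26). Among the checkpoint effectors BUB1B, BUB3 and MAD2L1, BUB3 led within every shCtrl library. BUB1B and BUB3 were nearly level in shGDPD5 libraries (28.97 to 30.35 for BUB1B, against 28.52 to 29.91 for BUB3). In shGDPD5 replicate 1 they stood at 29.65 and 29.64. In the MIS12 complex the order changed as well. The ratio of DSN1 to MIS12 counts was 1.42 to 1.57 in shGDPD5 and 0.480 to 0.565 in shCtrl libraries, and MIS12 was the highest subunit per kb in shCtrl libraries and DSN1 in shGDPD5 libraries. An exact two-sided permutation test of 3 against 3 libraries cannot go below p = 0.1, the value it gave for each count ratio named here, and the ratios were chosen after their values were seen. Levels per kb rest on the annotated exon length and so on the isoforms used, which were not measured.

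**Figure D4:**
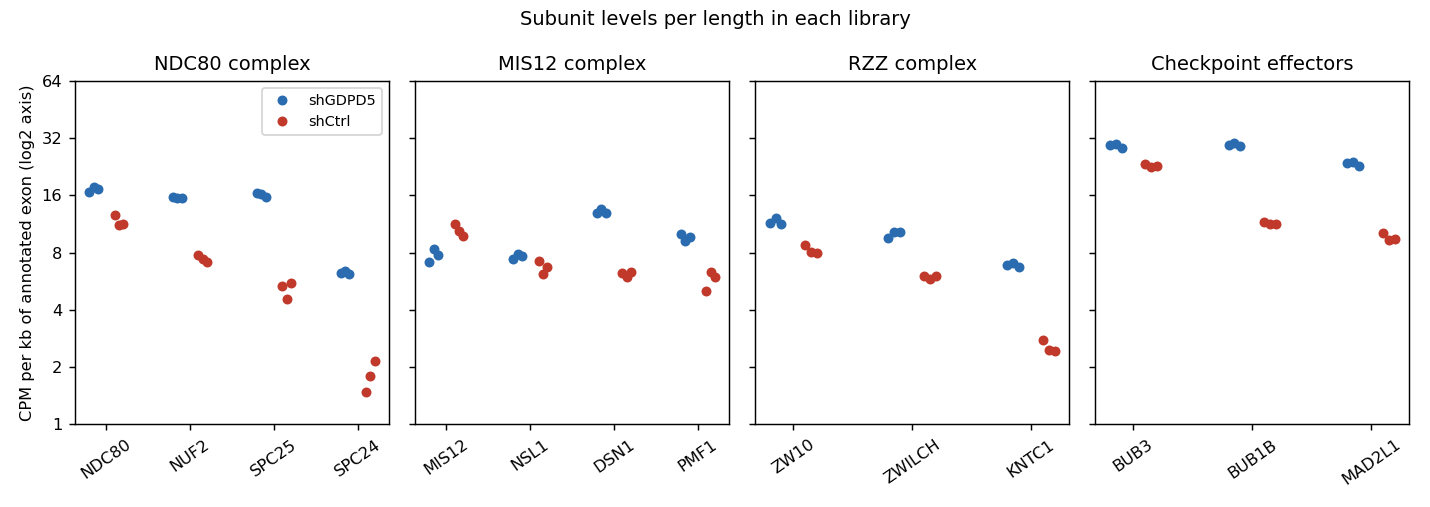
CPM per kb of annotated exon (y axis, log2 scale) of the subunits (x axis) of the NDC80, MIS12 and RZZ complexes and of the checkpoint effectors, with one point for each library, shGDPD5 in blue and shCtrl in red. The red points are farther apart between subunits than the blue ones for the NDC80 and RZZ complexes and the checkpoint effectors, and the blue MIS12 points lie below the red ones.

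Beyond the 43 genes, 20 other kinetochore and checkpoint genes were tested, of which 12 were higher, 5 were lower and 3 did not pass, with a median log2 fold change of 0.41. Their leading gene was TRIP13, the AAA ATPase that takes apart checkpoint complexes, with 38.2, 37.0 and 41.2 CPM in shGDPD5 libraries, against 15.1, 14.6 and 15.1 CPM in shCtrl libraries. It rose by 1.38 ± 0.069 (edgeR adjusted p = 5.83e-09). ITGB3BP, known as CENP-R and a partner of the CENP-O/P/Q/U subunits, rose by 1.31 ± 0.071 (edgeR adjusted p = 1.189e-08), although it overlaps exons of EFCAB7 and PGM1 on the opposite strand. At the other end were PPP2R5A, a B56 regulatory subunit of the phosphatase PP2A, which fell by 0.63 ± 0.069 (edgeR adjusted p = 6.753e-06), and BOD1, a regulator of that phosphatase at kinetochores, which fell by 0.52 ± 0.067 (2.382e-05) and has annotated pseudogenes. Higher genes were thus 60% of these 20, against 90.7% of the 43. Of all tested genes, 29.7% were called higher and 30.1% lower, so lower genes were not more frequent among these 20 than among all genes.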

How the data were processed

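RNA-seq libraries of HCT116 cells, 3 with shGDPD5 and 3 with shCtrl, were analysed from the estimated counts per gene that the authors deposited in 1 table. The aligner, counting tool, strand setting and build were not given in the sources used here, and 14.5% of values were not whole. Estimated counts were rounded (by at most 0.5), filtered with edgeR's default (minimum count 10), scaled by TMM and tested in edgeR 4.0.16 (quasi-likelihood, R 4.3.3), with Benjamini-Hochberg adjustment over 16755 genes and 3 libraries a group. The common biological coefficient of variation was 0.0555. At these depths, values of genes with few counts are the least precise. Members, classes and lists were chosen with earlier results of these data known. Values per library were given for the extremes of each class, genes called lower or not passing, and GDPD5. CENPA, NSL1 and TRIP13 values and the complexes were added after results were seen. Positions and exon lengths came from GENCODE release 29 and promoters from RefSeq, matched by symbol. Alternatives were RLE, upper quartile and no scaling factors, DESeq2 1.42.0, limma-voom (3.58.1), a per-gene test on log2(CPM + 1), 2 other filters, a replicate block and each library left out. On simulated data for this comparison (16435 genes), a log2 increase of 2 was recovered in 50 of 50 genes and an increase of 1 in 45 of 50. A decrease of 2 was recovered in 46 of 48 and a decrease of 1 in 40 of 47, and 16 of 16240 unchanged genes passed. Far fewer genes were changed in the simulation than were called in the data, so these rates need not carry over.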

Additional observations from a re-analysis of the deposited data

How the results depend on the processing

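Of the 40 members called, 39 were called in the same direction under all alternatives and each left-out library, the exception being NSL1. The number of members called lower was 2 without shCtrl replicate 1 and 1 to 2 over the left-out libraries, and the other counts and medians moved little: with each library left out, 38 to 39 members were higher, 18 passed the fold threshold of 1, the median log2 fold change was 0.81 to 0.88 and the constitutive minus outer difference 0.22 to 0.27. With library totals alone, the median over the 43 genes was 0.90. Genes that did not pass changed sign without passing. With library totals CENPB was at 0.023 and MAD1L1 at 0.024. Without shCtrl replicate 2, CENPB was at 0.025 and SPDL1 at -0.0081. SPDL1 was at -0.034 without shGDPD5 replicate 2, and MAD1L1 at 0.061 without shCtrl replicate 3. With each library left out, log2 fold changes were -0.13 to 0.025 for CENPB, -0.034 to 0.084 for SPDL1 and -0.13 to 0.061 for MAD1L1. The cause of these shifts was not tested. NSL1 also failed to pass in the per-gene test (adjusted p = 0.0716), without the filter (edgeR adjusted p = 0.06712) and without shGDPD5 replicate 2, shGDPD5 replicate 3 or shCtrl replicate 3 (0.06168 to 0.0998).

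Replicate numbers recur in both groups, but same-numbered libraries did not deviate together (correlations of -0.070, -0.052 and -0.041), so the numbers were not taken as pairs. With a replicate block, 39 members were higher, 1 was lower and 18 passed the fold threshold, the median was 0.84 and the constitutive minus outer difference 0.25, while over all genes 4792 were higher and 4853 lower, against 4971 and 5035 without it. Depth limits CENPP and CENPM most, with lowest counts of 51 and 54 in a library.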
